A study of Mus musculus with 22 samples.

Results

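The genes described here are 9 genes of the IL-17 programme of γδ T cells: Sox13, Maf, Blk, Il17a, Il17f, Il23r, Il1r1, Cd163l1 and Ccr6. They were chosen by name for their known roles, but with earlier results of these data known. Counts of members set beside shares of all genes are therefore a description. All 9 were found among the 37620 entries of the gene count table. They were followed across 11 lymphocyte populations sorted from pooled mammary tumours of female C57BL/6 mice that carry the PyMT oncogene and were 20 to 24 weeks old, in 22 RNA-seq libraries, 2 from each population. The PyMT strain expresses the polyoma middle T antigen in the mammary epithelium and develops tumours there. All groups share this strain, transgene, sex, age range and tissue, and no untreated or tumour-free tissue is among them. The first comparison set TCRgd+NK1.1- cells, γδ T cells without the receptor NK1.1, against TCRgd+ILTC1 cells, innate-like γδ T cells of type 1. The other populations fitted in the same set of 12 libraries were TCRab+ILTC1, ILC1l (an innate lymphoid population), cNK (conventional natural killer cells) and TCRb+CD8a+NK1.1- cells. A set of 10 libraries, fitted separately, held TCRb+CD8a-NK1.1+, TCRb+CD8a+NK1.1+, TCR-NK1.1+, TCRb+CD8a+PD1+ and TCRb+CD8a+PD1-NK1.1- cells. The labels name no batch. Nothing in the labels says that the 2 libraries of a population came from separate animals, so p-values measure the spread between these libraries only.

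γδ T cells carry a receptor made of γ and δ chains and divide early in the thymus into cells that make interferon-γ and cells that make IL-17. The IL-17 cells are programmed by transcription factors such as Sox13 and c-Maf, and they release IL-17A and IL-17F when myeloid cells give them IL-23 and IL-1. IL-17 in turn acts on epithelial and stromal cells, and in mammary tumours γδ T cells are a known source of it.

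Total counts ran from 8696335 to 20602715 per library, and 3 counts in a library equalled 0.151 to 0.322 CPM. CPM here are counts per 1000000 after TMM scaling, which corrects library size for composition. They are not divided by gene length, so levels are compared within a gene and not between genes. Scaling was done within each of the 2 sets of libraries, so levels set across the sets are described only. The NK1.1 sort was visible in the RNA: Klrb1c, which encodes NK1.1, had 6.54 and 11.4 CPM in the TCRgd+NK1.1- libraries against 1176 and 1470 CPM in the TCRgd+ILTC1 libraries. The 2 TCRgd+NK1.1- libraries stood apart in their content of other RNA. The summed CPM of 21 macrophage and monocyte markers was 9607 in replicate 1 and 28283 in replicate 2, against 749 to 4094 in the other 20 libraries. Of these genes, NK cells and other lymphocytes also express some, such as Tyrobp and Ctss. Csf1r, the growth factor receptor that defines macrophages, had 283 and 1432 CPM in TCRgd+NK1.1- cells against 5.18 and 9.70 CPM in TCRgd+ILTC1 cells. Summed CD3 gene levels were 3261 and 1929 CPM in TCRgd+NK1.1- cells and 4229 and 4906 CPM in TCRgd+ILTC1 cells. In bulk RNA, fewer cells of a type and less RNA per cell cannot be told apart.

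RefSeq promoters of build GRCm38.p6 were found for 7 of the 9 members (9 start sites), and Maf and Blk were not matched. The 250 bases before each start were searched on both strands for the nuclear receptor half-site AGGTCA (reverse TGACCT) and for the MAF half-site TGCTGAC (reverse GTCAGCA). The 4 windows that hold a motif are shown, and in these sequences, written 5′ to 3′ on the strand of the gene, capitals mark these letters. In Il17a the capitals hold both half-sites, which overlap.

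Il17a, chr1:20730655-20730904, plus strand: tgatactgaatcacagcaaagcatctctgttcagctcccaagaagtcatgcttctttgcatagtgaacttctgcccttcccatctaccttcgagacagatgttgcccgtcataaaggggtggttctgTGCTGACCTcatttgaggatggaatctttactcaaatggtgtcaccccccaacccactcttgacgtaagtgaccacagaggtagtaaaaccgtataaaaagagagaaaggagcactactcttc

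Il17f, chr1:20784271-20784520, minus strand: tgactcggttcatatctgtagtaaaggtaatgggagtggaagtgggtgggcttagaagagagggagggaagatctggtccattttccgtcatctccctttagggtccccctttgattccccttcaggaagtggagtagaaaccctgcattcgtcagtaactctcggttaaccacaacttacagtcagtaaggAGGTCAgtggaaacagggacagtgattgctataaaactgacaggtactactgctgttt

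Il23r, chr6:67491856-67492105, minus strand: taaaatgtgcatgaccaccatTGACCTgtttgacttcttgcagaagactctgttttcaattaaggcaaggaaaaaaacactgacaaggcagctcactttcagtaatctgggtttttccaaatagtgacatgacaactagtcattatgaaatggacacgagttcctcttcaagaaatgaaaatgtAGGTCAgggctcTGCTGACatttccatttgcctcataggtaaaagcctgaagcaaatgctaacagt

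Ccr6, chr17:8235793-8236042, plus strand: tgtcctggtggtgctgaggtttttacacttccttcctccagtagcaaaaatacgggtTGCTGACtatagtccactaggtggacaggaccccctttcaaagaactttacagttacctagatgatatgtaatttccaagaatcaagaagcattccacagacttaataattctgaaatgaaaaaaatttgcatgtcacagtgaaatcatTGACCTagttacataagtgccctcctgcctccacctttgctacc

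The nuclear receptor half-site was found in 4 of the 9 member windows, and the MAF half-site in 3 of 9 (Il17a, Il23r and Ccr6). Of all 32851 promoters of the same length, 14.0% held the nuclear receptor half-site and 3.8% the MAF half-site. These matches describe letters in the window. The windows of Sox13, Il1r1, Cd163l1 and the second Ccr6 start held neither motif.

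All 9 members were highest in TCRgd+NK1.1- cells, and for each of them both TCRgd+NK1.1- libraries lay above all 20 other libraries. Of the 27053 genes with a count, 3.5% did the same. The order also held for 9 of 9 members with another scaling (RLE), with 1 scaling over all 22 libraries, and per CD3 count among the libraries of T cell populations. TCRgd+ILTC1 cells had 0 counts in both libraries for 5 members and no more than 2 counts in a library for Blk and Cd163l1.

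**Figure D1:**
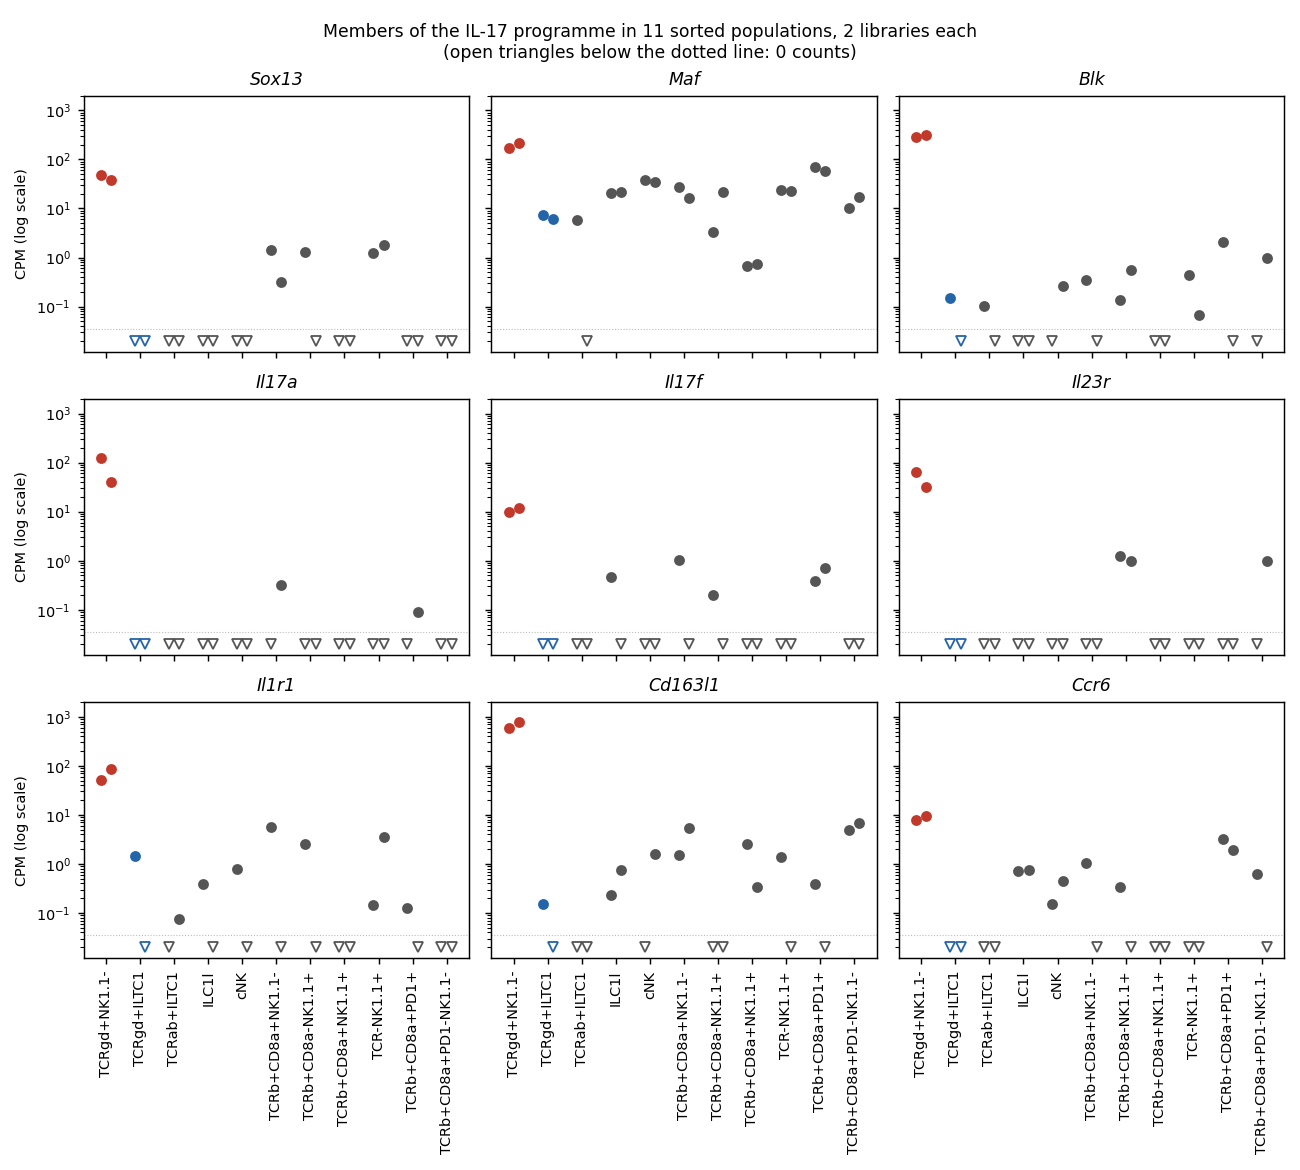
CPM on a log axis of the 9 members in each of 22 libraries, with the TCRgd+NK1.1- libraries in red at the left, the TCRgd+ILTC1 libraries in blue beside them and the other 9 populations in grey. Open triangles below the dotted line are libraries with 0 counts, and in every panel both red points lie above all other points.

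The transcription factors of the programme are Sox13 and Maf. Sox13 (ENSMUSG00000070643), an SRY-box factor needed for the development of IL-17-making γδ T cells in mice, had 49.1 and 37.6 CPM in the TCRgd+NK1.1- libraries and 0 counts in both TCRgd+ILTC1 libraries. With 3 counts as the floor for that group, Sox13 was at least 367-fold higher (adjusted p = 0.0452 by the quasi-likelihood test of edgeR, adjusted by Benjamini-Hochberg over 16828 genes). That call was lost when any of the 4 libraries was left out and with DESeq2. Outside TCRgd+NK1.1- cells it was seen in 5 of 20 libraries, with 17 and 27 counts in TCR-NK1.1+, 21 and 4 in TCRb+CD8a+NK1.1-, and 19 and 0 in TCRb+CD8a-NK1.1+ cells. Epithelial and tumour markers of the mammary gland summed to 2053 to 6290 CPM in these 5 libraries and 74.9 to 1274 in the 15 libraries without a Sox13 count. In the TCRgd+NK1.1- libraries that sum was 3999 and 2302, and its part in the Sox13 levels was not tested.

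Maf (ENSMUSG00000055435), which encodes c-Maf, a factor needed for IL-17-making γδ T cells and active in macrophages and other T cells too, had 173 and 216 CPM in TCRgd+NK1.1- cells and 7.44 and 6.18 CPM in TCRgd+ILTC1 cells. The groups did not overlap, and the ratio was 29.2. The log2 fold change of 4.83 ± 1.22 (SE) had an adjusted p of 0.0840 by edgeR and did not pass 0.05. Maf was the member least confined to TCRgd+NK1.1- cells, which held 46.5% of all its counts. It had 68.7 and 57.8 CPM in TCRb+CD8a+PD1+ cells, 38.6 and 34.5 CPM in cNK cells, 24.3 and 22.5 CPM in TCR-NK1.1+ cells and 20.9 and 21.3 CPM in ILC1l cells. TCRb+CD8a+NK1.1- cells had 27.3 and 16.6 CPM, TCRb+CD8a+PD1-NK1.1- cells 10.2 and 17.1 CPM and TCRb+CD8a-NK1.1+ cells 3.34 and 21.3 CPM. Its lowest mean was in TCRb+CD8a+NK1.1+ cells, at 0.667 and 0.752 CPM, which overlapped TCRab+ILTC1 cells at 5.88 and 0 CPM. TCRb+CD8a+PD1+ and cNK cells each kept clear of their neighbours in this order, while TCR-NK1.1+, TCRb+CD8a+NK1.1- and ILC1l cells overlapped in a chain. The order spans both separately scaled sets, so its gaps and overlaps across sets are a description. The high Maf of TCRb+CD8a+PD1+ cells stood beside low macrophage marker sums of 1125 and 1068 CPM. Maf shares exon sequence with a gene on the opposite strand, Gm15655, which had 36 and 31 counts in TCRgd+NK1.1- cells, and the sources used here do not say whether strand was used.

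Blk (ENSMUSG00000014453) encodes a Src-family kinase known from B cells and from IL-17-making γδ T cells. It had 283 and 320 CPM in TCRgd+NK1.1- cells, from 7243 counts, against 2 and 0 counts in TCRgd+ILTC1 cells. The ratio was 3983 with a 95% counting interval of 1102 to 32895 (exact), and Blk had the smallest adjusted p of the 9, 0.00902 by edgeR. TCRgd+NK1.1- cells held 99.0% of all Blk counts. The highest other library, TCRb+CD8a+PD1+ replicate 1, had 33 counts, and its partner had 0. No other library outside TCRgd+NK1.1- cells had more than 13 counts of Blk, and 10 of the 20 had 0. B cell and plasma cell marker sums were 1542 and 440 CPM in TCRgd+NK1.1- cells against 714 and 935 CPM in TCRgd+ILTC1 cells, and their part in the Blk levels was not tested.

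Both cytokines were at 0 counts in TCRgd+ILTC1 cells. Il17a (ENSMUSG00000025929), the lead cytokine of the programme, had 124 and 40.3 CPM in TCRgd+NK1.1- cells and 0 counts in both TCRgd+ILTC1 libraries, at least 638-fold higher (adjusted p = 0.0538 by edgeR). It had 0 counts in 18 of the 20 other libraries, 4 counts in TCRb+CD8a+NK1.1- replicate 2 and 1 count in TCRb+CD8a+PD1+ replicate 2. TCRgd+NK1.1- cells thus held 99.7% of the Il17a counts of the 22 libraries. Il17f (ENSMUSG00000041872), its close relative that pairs with it as a dimer, had 9.66 and 11.9 CPM in TCRgd+NK1.1- cells and 0 counts in TCRgd+ILTC1 cells. It was at least 96.0-fold higher, with an adjusted p of 0.184 by edgeR. Il17f had 15 and 0 counts in TCRb+CD8a+NK1.1- cells and 6 and 8 counts in TCRb+CD8a+PD1+ cells. It was at 6 and 0 counts in ILC1l cells, 3 and 0 counts in TCRb+CD8a-NK1.1+ cells and 0 in the other 6 populations.

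The receptors for the inducing cytokines were Il23r and Il1r1. Il23r (ENSMUSG00000049093), the specific chain of the IL-23 receptor, had 65.0 and 31.6 CPM in TCRgd+NK1.1- cells and 0 counts in TCRgd+ILTC1 cells, at least 389-fold higher (adjusted p = 0.0538 by edgeR). Outside TCRgd+NK1.1- cells it was found in 3 of 20 libraries: both TCRb+CD8a-NK1.1+ libraries, with 1.27 and 0.970 CPM, and TCRb+CD8a+PD1-NK1.1- replicate 2, with 0.966 CPM. Il1r1 (ENSMUSG00000026072), the signalling receptor for IL-1, had 50.2 and 88.1 CPM in TCRgd+NK1.1- cells against 1.43 and 0 CPM in TCRgd+ILTC1 cells. The ratio was 101 and the log2 fold change 6.58 ± 2.50 (SE), with an adjusted p of 0.213 by edgeR. Il1r1 was uneven between libraries of a population elsewhere too, with 5.60 and 0 CPM in TCRb+CD8a+NK1.1- cells, 2.54 and 0 CPM in TCRb+CD8a-NK1.1+ cells and 0.146 and 3.49 CPM in TCR-NK1.1+ cells. The other 6 populations had at most 10 counts of Il1r1 in a library.

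The surface molecules were Cd163l1 and Ccr6. Cd163l1 (ENSMUSG00000025461) encodes the scavenger receptor SCART1, a mark of IL-17-making γδ T cells in mice. It had 579 and 778 CPM in TCRgd+NK1.1- cells against 2 and 0 counts in TCRgd+ILTC1 cells, a ratio of 9138 with a 95% counting interval of 2529 to 75464 (exact) and an adjusted p of 0.0120 by edgeR. Low levels were present in conventional CD8 populations, with 4.85 and 6.91 CPM in TCRb+CD8a+PD1-NK1.1- cells and 22 and 66 counts in TCRb+CD8a+NK1.1- cells. TCRb+CD8a+NK1.1+ cells had 31 and 4 counts of Cd163l1, TCR-NK1.1+ cells 19 and 0, cNK cells 0 and 18 and ILC1l cells 3 and 9. Ccr6 (ENSMUSG00000040899), the receptor for the chemokine CCL20, had 7.94 and 9.30 CPM in TCRgd+NK1.1- cells and 0 counts in TCRgd+ILTC1 cells, at least 76.3-fold higher with an adjusted p of 0.120 by edgeR. TCRb+CD8a+PD1+ cells came next with 3.20 and 1.96 CPM, above and clear of ILC1l cells at 0.708 and 0.748 CPM. In the other 8 populations Ccr6 had at most 15 counts in a library, and 11 of the 20 libraries had 0.

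Against TCRgd+ILTC1 cells, then, 3 of the 9 members (Sox13, Blk and Cd163l1) were called higher at an adjusted p under 0.05 and none lower, while 0.921% of the 16828 genes tested were called higher and 0.671% lower. At an unadjusted p under 0.05 all 9 were higher, as were 11.2% of the genes tested. The libraries of the 2 populations did not overlap for 9 of 9 members, as for 15.1% of the 25819 genes with a count in the set. Outside TCRgd+NK1.1- cells, Blk, Il17a and Il23r had at most 5 counts in any library of the set. They thus passed the filter on low counts only through the TCRgd+NK1.1- libraries. Members at 0 counts in both TCRgd+ILTC1 libraries could not come out lower in TCRgd+NK1.1- cells. For these members the direction was fixed beforehand, so the counts describe and do not test it. With genes at 0 counts put at their bound, the median log2 fold change of the members was 8.52, against a median of 0.13 over all genes tested. The count of 3 rested on both TCRgd+ILTC1 libraries: without TCRgd+ILTC1 replicate 1 only Blk was called, and without TCRgd+ILTC1 replicate 2 none was, in fits where the lone library is assumed to vary like the other populations. Without TCRgd+NK1.1- replicate 2, Il17a was called (adjusted p = 0.0464 by edgeR) and Sox13 was not. The count was 9 without the filter on low counts and 0 with libraries scaled to CD3 counts, and no gene in the table was called higher or lower in that scaling.

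In the other comparisons of the set the libraries did not overlap for 9 of 9 members either, higher in TCRgd+NK1.1- cells, as for 14.7% of genes against TCRab+ILTC1, 14.8% against ILC1l, 16.7% against cNK and 12.9% against TCRb+CD8a+NK1.1- cells. Against TCRab+ILTC1 cells 3 members were called (Blk, Cd163l1 and Sox13), where 0.856% of all genes were called higher and 0.499% lower. Against ILC1l cells they were again Blk, Cd163l1 and Sox13, where 0.826% of genes were called higher and 0.505% lower. Without TCRab+ILTC1 replicate 1 the first count was 6, and without TCRab+ILTC1 replicate 2 Sox13 and Cd163l1 were no longer called. Without either ILC1l library the second count was 1. The Sox13 call against TCRab+ILTC1, ILC1l and cNK cells was lost without TCRgd+NK1.1- replicate 2. Against cNK cells 5 were called, Blk, Cd163l1, Il17a, Il23r and Sox13 (1.46% of genes higher, 1.28% lower). Without either cNK library that count was 2, and without TCRgd+NK1.1- replicate 1 it was 3. Against TCRb+CD8a+NK1.1- cells only Blk was called (0.0357% of genes, 6 in all, and 0.0416% lower), with an adjusted p of 0.0335 by edgeR and 5 counts in the comparison population. Blk was not called there without either TCRb+CD8a+NK1.1- library, and Cd163l1 joined it without TCRgd+NK1.1- replicate 1. In that comparison Cd163l1 was 216-fold higher (adjusted p = 0.0675), Sox13 45.8-fold (0.216), Il17a 497-fold (0.153) and Maf 8.88-fold (0.370), all by edgeR. These 5 comparisons share the TCRgd+NK1.1- libraries, and the same limits from the filter and from populations at 0 counts hold in them.

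**Figure D2:**
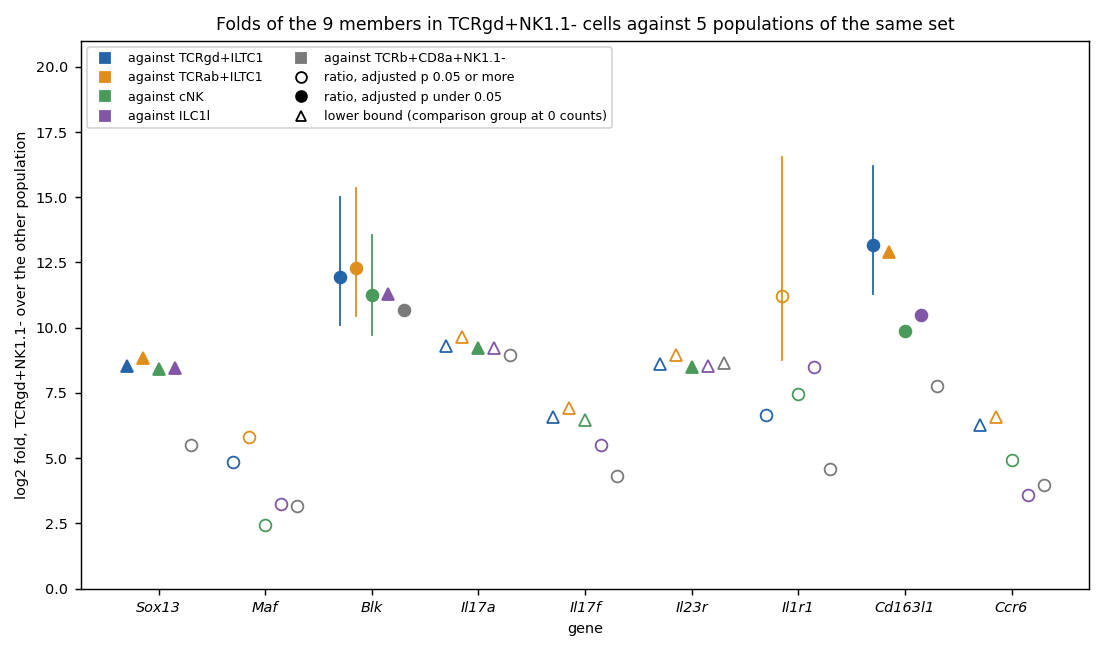
Log2 fold of each member in TCRgd+NK1.1- cells over 5 populations of its set, with filled symbols for an adjusted p under 0.05. Triangles are lower bounds where the comparison population had 0 counts, bars are 95% counting intervals where it had 1 to 3 counts, and Blk is filled against all 5 populations while Maf is filled against none.

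TCRgd+ILTC1 cells were also set against other T cells. Against TCRab+ILTC1 cells 0 of 9 members were called, 0 had an unadjusted p under 0.05, and DESeq2 called 0 as well. Sox13, Il17a, Il17f, Il23r and Ccr6 had 0 counts in both populations, so no test could call them. Blk had 2 counts in each population, and Cd163l1 had 2 counts in TCRgd+ILTC1 and 0 in TCRab+ILTC1 cells, too few for a fold. The count of 0 therefore does not show that the populations are alike. By edgeR 0.0% of all genes were called either way, and 2.03% were higher and 1.36% lower at an unadjusted p under 0.05. Maf had 7.44 and 6.18 CPM in TCRgd+ILTC1 cells against 5.88 and 0 CPM in TCRab+ILTC1 cells. Its libraries did not overlap, as for 10.4% of genes, and it was called higher when TCRab+ILTC1 replicate 1 was left out. Against TCRb+CD8a+NK1.1- cells 0 members were called by edgeR or DESeq2 (0.149% of genes were called lower and 0.25% higher), and 3 were lower at an unadjusted p under 0.05 (Sox13, Cd163l1 and Ccr6), as were 7.54% of genes. Cd163l1 had 2 counts in TCRgd+ILTC1 cells and 88 in TCRb+CD8a+NK1.1- cells. Sox13 had 0 counts in TCRgd+ILTC1 cells and 25 in TCRb+CD8a+NK1.1- cells. Il23r had 0 counts in both populations, so it could not be called. The libraries of Sox13, Maf and Cd163l1 did not overlap, as for 17.1% of genes.

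The difference between NK1.1- and ILTC1 cells was tested for being larger among γδ than among αβ T cells, as TCRgd+NK1.1- minus TCRgd+ILTC1, minus the same for TCRb+CD8a+NK1.1- minus TCRab+ILTC1. By edgeR 0 of 9 members were called, as by DESeq2, and 0.0119% of genes were called higher and 0.0416% lower. Only Blk had an unadjusted p under 0.05, as 4.02% of genes did with a higher difference, and its log2 difference was 10.31 ± 2.97 (SE) with an adjusted p of 0.388. Maf differed by 1.97 ± 1.51 (adjusted p = 0.795), and it was called lower when TCRab+ILTC1 replicate 1, the library holding all of that population's Maf counts, was left out. Il1r1 differed by 0.50 ± 13.9, and the other 6 had 0 counts in a population, so that their difference has no bounded value. Of those 6, Sox13, Il17a, Il17f, Il23r and Ccr6 had 0 counts in both ILTC1 populations, so the test could not decide on them.

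In the other set, where no γδ population was sorted, TCRb+CD8a-NK1.1+ cells had the most Il23r of the other 10 populations, 33 counts. Il17a and Cd163l1 were at 0 counts in both TCRb+CD8a-NK1.1+ libraries. Set against TCRb+CD8a+PD1-NK1.1- cells, 0 of the 7 members that passed the filter on low counts were called by edgeR (1.06% of genes were called higher and 0.362% lower), and 1 was lower at an unadjusted p under 0.05, as were 4.11% of genes. That member was Cd163l1, with 0 counts in TCRb+CD8a-NK1.1+ cells and 155 in TCRb+CD8a+PD1-NK1.1- cells, at least 57.9-fold lower, and DESeq2 called it. Maf was called lower when TCRb+CD8a-NK1.1+ replicate 2 was left out. Against TCR-NK1.1+ cells 0 of 7 were called by edgeR or DESeq2 and 0 had an unadjusted p under 0.05. Of all genes 0.0% were called, and 5.24% were higher and 3.31% lower at an unadjusted p under 0.05.

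The 2 TCRgd+NK1.1- libraries differed among the members. Il17a was 3.08 times, Il23r 2.05 times and Sox13 1.31 times as high in replicate 1 as in replicate 2, by CPM. The other 6 members were lower in replicate 1, at 0.570 to 0.884 times replicate 2. Per 1000 CD3 counts, Il17a had 38.1 in replicate 1 and 20.9 in replicate 2, and Il23r 19.9 and 16.4. On that scale the other 7 were lower in replicate 1, from Il1r1 with 15.4 and 45.7 to Sox13 with 15.1 and 19.5. Il17a and Il17f differed in opposite directions between the libraries, and with 2 libraries these differences have no test. Replicate 1 had the lowest total of all libraries, 8696335 counts, and the most genes with a count, 21446, against 14386 in replicate 2 and 12866 to 18664 in the other 20. The part of these library differences in the ratios was not tested.

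**Figure D3:**
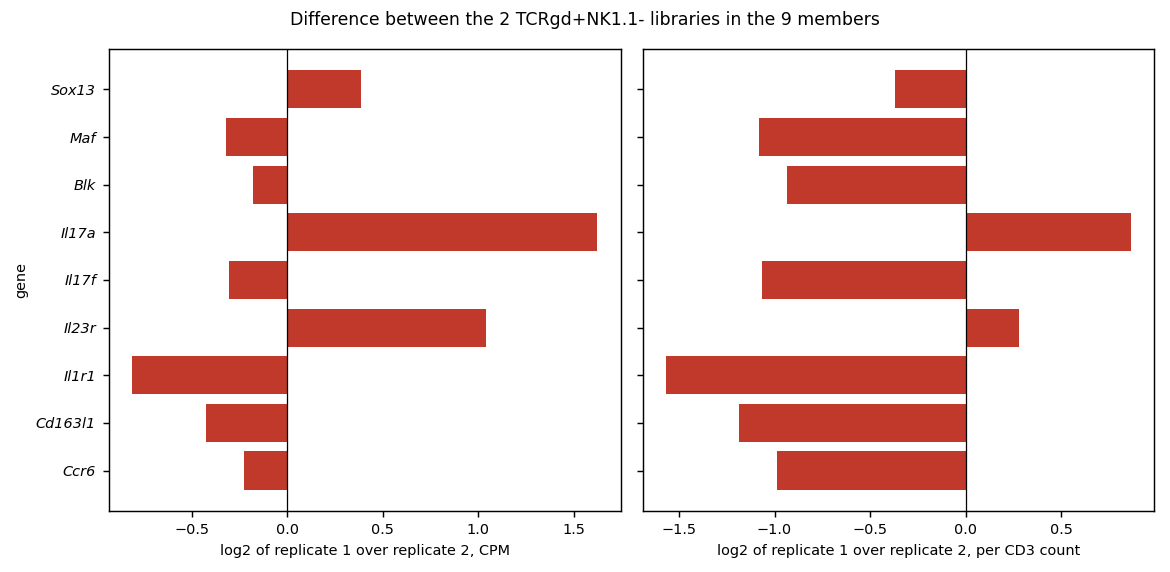
Log2 ratio of TCRgd+NK1.1- replicate 1 over replicate 2 for the 9 members, by CPM at the left and per CD3 count at the right. Il17a and Il23r point to replicate 1 on both scales, and Maf, Blk, Il17f, Il1r1, Cd163l1 and Ccr6 to replicate 2.

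Macrophage and monocyte RNA differed between the groups in the same direction as the members. In TCRgd+NK1.1- against TCRgd+ILTC1 cells 6 of 21 markers of that list were called higher, among them Ctss, Cd68, Csf1r and Lyz2, and 20 of 21 had a log2 fold change above 0, with a median of 6.63. Maf and Il1r1 are genes that macrophages and stromal cells can express. Over the other 20 libraries the correlation of log2(CPM + 1) with the mean of the marker list was 0.34 for Maf, 0.451 for Il1r1 and 0.65 for Sox13. It ran from -0.147 to 0.255 for the other 6. For these correlations CPM were taken per total counts, without TMM scaling. The points share libraries, and many hold 0 counts. The part of macrophage RNA in the Maf and Il1r1 levels was not tested. Of 15 mammary epithelial markers 4 were called higher (Krt19, Cldn4, Krt8 and Csn3) and 1 lower (Cdh1). Fibroblast marker sums were 1185 and 168 CPM in TCRgd+NK1.1- cells against 85.9 and 82.7 CPM in TCRgd+ILTC1 cells. The dendritic cell marker sums were 1819 and 2781 CPM in TCRgd+NK1.1- cells and at most 574 in the other 20 libraries. Neutrophil marker sums were 132 and 125 CPM in TCRgd+NK1.1- cells and at most 30.4 in the other 20, and erythroid and platelet sums 302 and 129 CPM against at most 72.5. The part of these RNAs in the members' levels was not tested.

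**Figure D4:**
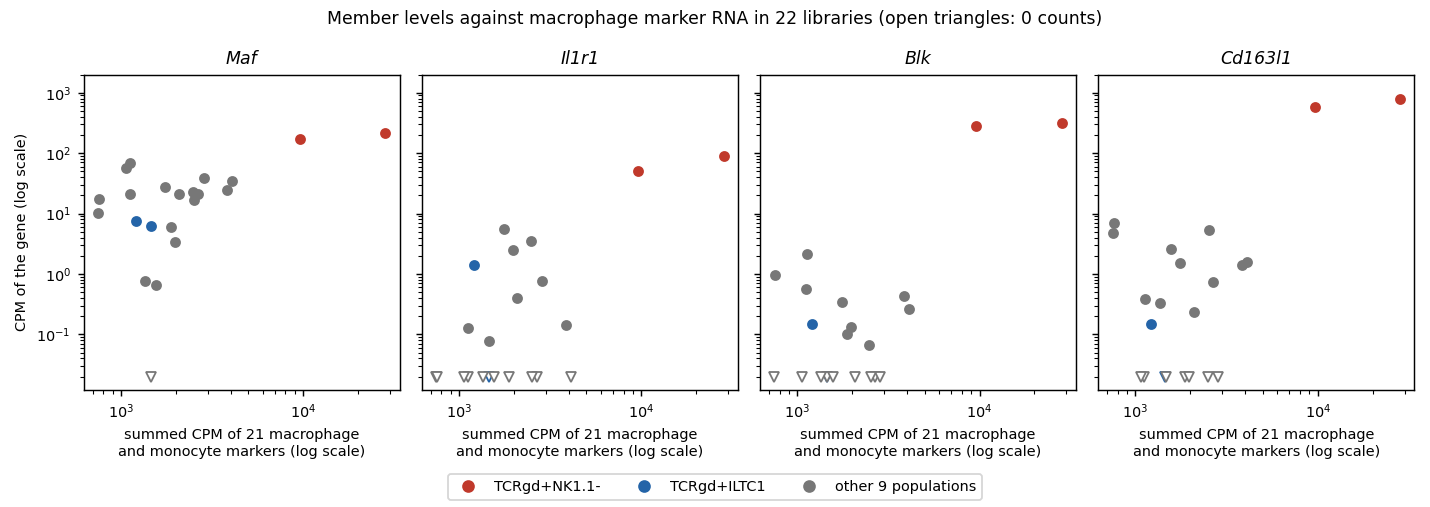
CPM of Maf, Il1r1, Blk and Cd163l1 against the summed CPM of 21 macrophage and monocyte markers in 22 libraries, both on log axes, with TCRgd+NK1.1- in red, TCRgd+ILTC1 in blue and open triangles for 0 counts. The red points have both the highest marker sums and the highest level of each gene, and among the grey points Maf is as high as 68.7 CPM at a marker sum of 1125 CPM.

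Beyond the members, the wider type 3 lists were less uniform. Of 18 type 3 transcription factors tested in TCRgd+NK1.1- against TCRgd+ILTC1 cells 1 was called higher, Sox4, an SRY-box factor that acts with Sox13 in this lineage in mice, with 54.0 and 111 CPM in TCRgd+NK1.1- cells against 0.150 and 0 CPM in TCRgd+ILTC1 cells (adjusted p = 0.0211 by edgeR). Sox4 also had 48.8 and 68.0 CPM in TCR-NK1.1+ cells and 43.5 and 12.3 CPM in TCRb+CD8a-NK1.1+ cells, where epithelial and tumour marker sums were 6290 and 3890 CPM and 4486 and 1038 CPM in the same order. The part of epithelial RNA in the Sox4 levels was not tested. Rora, which encodes a nuclear receptor, had 56.8 and 35.2 CPM in TCRgd+NK1.1- cells against 10.5 and 6.02 CPM in TCRgd+ILTC1 cells (adjusted p just above 0.05, not called). Rora in CD8 T cells without NK1.1 overlapped these levels, with 38.3 and 60.1 CPM in TCRb+CD8a+NK1.1- and 32.2 and 47.9 CPM in TCRb+CD8a+PD1-NK1.1- cells. TCRb+CD8a+PD1+ cells overlapped too, with 17.4 and 41.6 CPM, and the remaining populations had at most 17.3 CPM. The list's median log2 fold change was 1.13. Of 19 receptors and signalling genes 0 were called, with a median of 1.38. Il7r, the IL-7 receptor chain, had 222 and 261 CPM in TCRgd+NK1.1- cells against 23.0 and 56.2 CPM in TCRgd+ILTC1 cells, with an adjusted p of 0.0743. Il12rb1, the chain that pairs with Il23r, had 37.4 and 77.8 CPM in TCRgd+NK1.1- cells and 34.5 and 28.0 CPM in TCRgd+ILTC1 cells.

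Of the 11 other type 3 cytokines 6 passed the filter and 0 were called, with a median log2 fold change of 1.08. Il22, the cytokine often made beside IL-17, had 4.83 and 10.1 CPM in TCRgd+NK1.1- cells and 0 counts in all 20 other libraries. Of 6 IL-17 receptor genes 5 were tested and 0 called, with a median of 0.77. Il17re, the receptor chain for IL-17C, had 75.6 and 22.1 CPM in TCRgd+NK1.1- cells and 0 counts in TCRgd+ILTC1 cells (adjusted p = 0.0579). Il17re was also at 8.67 and 21.3 CPM in TCRb+CD8a+NK1.1- cells and 17.6 and 9.86 CPM in TCR-NK1.1+ cells. TCRb+CD8a-NK1.1+ cells had 13.8 and 0.277 CPM, and the remaining populations at most 1.69 CPM. Epithelial and tumour marker sums in these 3 populations were 2053 and 3346, 6290 and 3890, and 4486 and 1038 CPM, in the same order. In TCRgd+NK1.1- cells they were 3999 and 2302 CPM. The part of epithelial RNA in the Il17re levels was not tested. Of 10 upstream ligands 8 were tested and 0 called, with a median of 5.75 when genes at 0 counts are put at their bound. Il1b, an IL-1 gene of myeloid cells, had 313 and 230 CPM in TCRgd+NK1.1- cells against 2.18 and 0.156 CPM in TCRgd+ILTC1 cells, in the libraries with the high macrophage sums.

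All 19 other surface and signature genes of IL-17-making γδ T cells had a log2 fold change above 0, with a median of 3.78, and 3 were called. Serpinb1a, a serpin reported as a mark of these cells in mice, had 313 and 296 CPM in TCRgd+NK1.1- cells against 2.03 and 0 CPM in TCRgd+ILTC1 cells (adjusted p = 0.0211). Gpr183, an oxysterol receptor that guides lymphocyte position, had 115 and 180 CPM in TCRgd+NK1.1- cells against 28.0 and 20.4 CPM in TCRgd+ILTC1 cells (adjusted p = 0.0141). TCRb+CD8a+NK1.1- cells overlapped TCRgd+NK1.1- cells in Gpr183, with 121 and 122 CPM, while the other populations of the set had at most 32.4 CPM. Tmem176a, a membrane channel linked to type 3 lymphocytes, had 428 and 331 CPM in TCRgd+NK1.1- cells against 28.5 and 14.9 CPM in TCRgd+ILTC1 cells (adjusted p = 0.0157). It was also present in cells without a γδ sort, with 157 and 121 CPM in ILC1l cells and 205 and 108 CPM in TCR-NK1.1+ cells. The remaining populations had at most 71.2 CPM of Tmem176a. All 3 p-values are from edgeR, and the median over all genes was 0.13. The calls of Sox4, Gpr183 and Tmem176a were lost without either TCRgd+ILTC1 library, and that of Serpinb1a without replicate 2 of that population.

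Of 20 type 1 genes, the interferon-γ side of γδ T cells, 9 were called lower and 0 higher in TCRgd+NK1.1- cells, and 11 were not called. The log2 fold change was above 0 for 4 of the 20, and the median was -1.32. Klrk1, which encodes the activating receptor NKG2D, had 83.6 and 40.6 CPM in TCRgd+NK1.1- cells against 787 and 676 CPM in TCRgd+ILTC1 cells (log2 -3.56 ± 0.41, adjusted p = 0.00852 by edgeR). Tbx21, the gene of the type 1 factor T-bet, had 17.7 and 18.8 CPM in TCRgd+NK1.1- cells against 75.5 and 54.4 CPM in TCRgd+ILTC1 cells (adjusted p = 0.0448), a call that was lost without any of the 4 libraries and with RLE scaling. Stat4, which relays IL-12 signals, was lower with an adjusted p of 0.0120, Xcl1, a chemokine, with 0.0157, and Il2rb, a receptor chain for IL-2 and IL-15, with 0.0251. Ifng itself was not called, with 75.5 and 49.6 CPM in TCRgd+NK1.1- cells and 60.7 and 43.2 CPM in TCRgd+ILTC1 cells. The 9 lower calls were 1, Klrk1, without either TCRgd+ILTC1 library, and 0 with scaling to CD3 counts. That scaling moved the median log2 fold change of all genes to 0.96, and RLE scaling moved it to 0.27 with 173 genes called higher and 79 lower in the table, in place of 155 and 113. Against TCRb+CD8a+NK1.1- cells no gene of the type 3 or type 1 lists was called by edgeR, where the whole table had 6 calls higher and 7 lower.

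**Figure D5:**
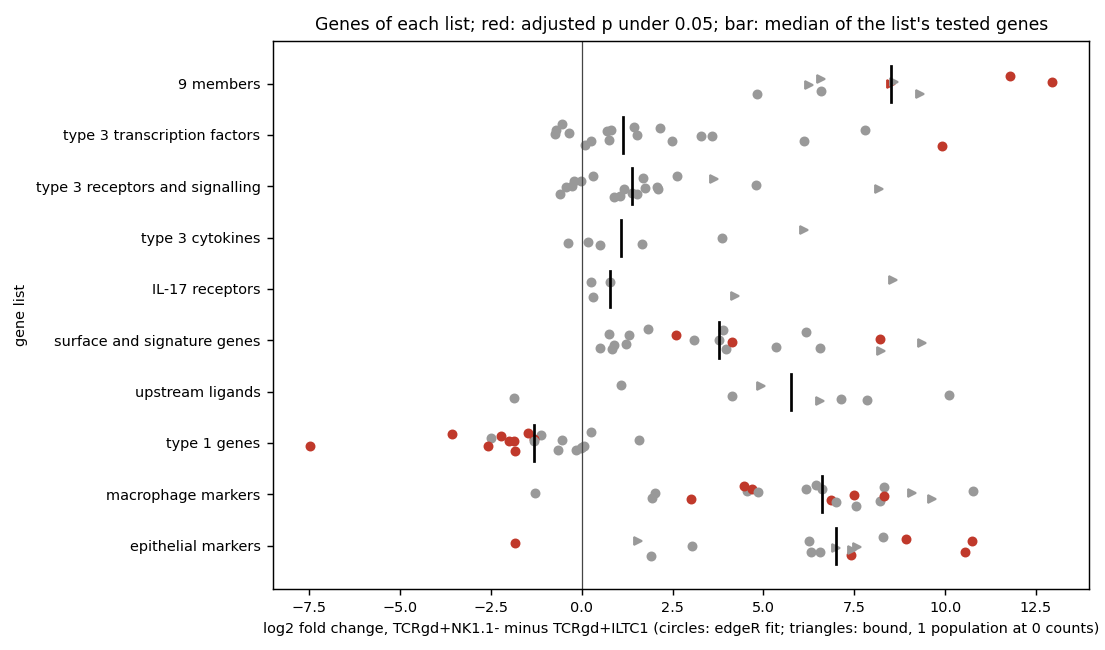
Log2 fold change in TCRgd+NK1.1- minus TCRgd+ILTC1 cells for the tested genes of each list, with red for an adjusted p under 0.05 and bars for list medians. Triangles are bounds for genes at 0 counts in 1 population, the members lie between 4.83 and 12.95, and the type 1 list is the only type 3 or type 1 list drawn with its median below 0.

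Tcrg-V6 and Trdv4, segments that are paired in the fetal γδ T cells of mice that make IL-17, were both measured. Tcrg-V6 had 181 and 92.6 CPM in TCRgd+NK1.1- cells against 4.13 and 3.13 CPM in TCRgd+ILTC1 cells. Trdv4 had 395 and 284 CPM in TCRgd+NK1.1- cells against 24.3 and 43.3 CPM in TCRgd+ILTC1 cells. Tcrg-V6 was called higher (log2 5.23 ± 0.84, adjusted p = 0.0263 by edgeR), and Trdv4 was not (adjusted p = 0.0794). The Tcrg-V6 call was lost without either TCRgd+ILTC1 library. Against TCRb+CD8a+NK1.1- cells Tcrg-V6, Trdv4 and Tcrg-C1 were called higher. The constant segments Tcrg-C1, Tcrg-C2 and Tcrg-C4 were not called between the γδ populations. Reads of such segments can be split between related copies, so these values are uncertain.

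The genes whose log2(CPM + 1) followed each member best over the 22 libraries were largely shared. Cd209g, a C-type lectin gene, came first for Il17a (r = 0.993), Blk (0.983), Il23r (0.975) and Cd163l1 (0.933), with 10.3 CPM in the lower of the TCRgd+NK1.1- libraries and at most 0.134 CPM in any other. Blk and Il17a were each among the 3 closest genes of the other, and both were among those of Il23r and Cd163l1. Nlrp3, an inflammasome gene of myeloid cells, came first for Sox13 (0.973) and Il17f (0.970) and second for Il1r1 (0.956), behind Mmp2 (0.966), a matrix protease of stromal cells. Ccr6 was closest to Il17f (0.910). Maf differed, with Ifi204 (0.905), Cd44 (0.874) and Etv6 (0.844). These correlations have no test, their points share depth and set, and they rest mainly on the 2 TCRgd+NK1.1- libraries. Over the other 20 libraries none of these genes stayed among the 3 closest except Ifi204 for Maf (0.884) and Mmp2 for Il1r1 (0.839).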

How the data were processed

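Per the labels' protocols, cDNA of 11 sorted populations (22 libraries) was amplified with the SMARTer kit. The submitters' processing notes name BWA 0.7.5a, Picard, HTSeq and the mouse builds mm9 and NCBIM37, with strand use and shared reads not given in the sources used here. Values deposited by the authors are raw gene counts, with no normalization. Of 37620 entries 32897, with 99.02% of counts, matched a current symbol in a GRCm38 annotation, used for names alone. The spellings ILC1I and ILC1l were taken as the same population.

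The set of 12 libraries (16828 genes tested) and the set of 10 (15727) were fitted separately with edgeR 4.0.16 in R 4.3.3. Libraries were scaled by TMM, low genes removed with filterByExpr and 1 mean fitted per population, and quasi-likelihood tests were adjusted by Benjamini-Hochberg over all genes tested, with a threshold of 0.05. Values, folds and figures were made in Python 3.11.15 with pandas 2.3.3, scipy 1.17.1 and matplotlib 3.10.9. The SE given with edgeR folds was not estimated directly. It was worked back from the test, as the absolute log2 fold change over the square root of the F statistic. A population at 0 counts was given a floor of 3 counts over its libraries for a fold bound. Counting intervals (exact binomial, 95%) and bounds cover counting error only, since copies made in amplification were not marked.

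Alternatives were RLE scaling, DESeq2 1.42.0, no filter, 1 fit of all libraries, a replicate block, scaling to CD3 counts (Cd3d, Cd3e, Cd3g and Cd247) and leaving out each library. Leaving out genes that follow macrophage markers was added after seeing the data; no member is among them, so it leaves the members' own counts as they are. Members, lists and tests were chosen with earlier results of these data known. Members are always named, and up to 4 called genes per list and direction by smallest adjusted p; Rora, Il7r, Il12rb1, Il22, Il17re, Il1b, Tbx21 and Ifng were named after their values were seen. The 3 closest genes by Pearson r were sought for each member among genes with a mean of at least 1 CPM, without predicted genes and receptor or immunoglobulin segments. Promoters and their motifs come from RefSeq on GRCm38.p6, whose coordinates were not joined to the counts.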

Additional observations from a re-analysis of the deposited data

How the results depend on the processing

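The number of members called in TCRgd+NK1.1- cells, 3 against TCRgd+ILTC1, 1 against TCRb+CD8a+NK1.1-, 3 against TCRab+ILTC1, 5 against cNK and 3 against ILC1l, depended on the test. Without the filter on low counts it was 9, 7, 9, 8 and 7. In 1 fit of all 22 libraries it was 6, 2, 6, 5 and 5. DESeq2 called 4, 3, 5, 2 and 3. With libraries scaled to CD3 counts it was 0 against each of the 3 T cell populations. Leaving out 1 library gave 0 to 3, 0 to 2, 2 to 6, 2 to 4 and 1 to 3. Deviations of same-numbered libraries correlated at -0.04 to 0.12 in the set of 12, with 1 of 15 pairs of populations over 0.1, and at 0.05 to 0.23 in the set of 10, with 8 of 10 over 0.1. Pairing was not taken as shown in either set, since not every pair was over 0.1. With the replicate block 2, 1, 2, 3 and 2 members were called: Sox13 was lost against TCRgd+ILTC1, TCRab+ILTC1 and ILC1l, and Il17a and Il23r against cNK. In the set of 10 the block gave 285 higher and 121 lower calls over all genes, in place of 166 and 57, for TCRb+CD8a-NK1.1+ against TCRb+CD8a+PD1-NK1.1-, and 11 and 5 in place of 0 and 0 against TCR-NK1.1+. The comparisons with 0 members called gave 3 for TCRgd+ILTC1 against TCRb+CD8a+NK1.1- without the filter, 1 for TCRb+CD8a-NK1.1+ against TCRb+CD8a+PD1-NK1.1- without it and with DESeq2, and 1 for the difference of differences without it. Leaving out 1 library gave 0 to 1 for TCRgd+ILTC1 against TCRab+ILTC1, for TCRb+CD8a-NK1.1+ against TCRb+CD8a+PD1-NK1.1- and for the difference of differences, and 0 in the other 2. The 9 lower calls of the type 1 list were 0 with CD3 scaling and 1 to 9 with a library left out. All calls of TCRgd+NK1.1- against TCRgd+ILTC1, 268, were 1700 with DESeq2, 1786 without the filter, 626 in 1 fit of all libraries, 0 with CD3 scaling and 7 to 804 with a library left out. Of the 62 gene results 1 changed direction while called: Maf's difference of differences, 1.97, was -6.21 without TCRab+ILTC1 replicate 1 (adjusted p = 0.0488 by edgeR), where that population had 0 Maf counts left, so that the value is no bound. With a library left out it ranged from -6.21 to 2.92, and over the other alternatives its adjusted p was 0.161 or more. The cause of these changes was not tested. Depth limits the low populations, where many values lie at or under 3 counts with 2 libraries per population.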

Other observations

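Other genes of the type 3 lists, singled out after their values were seen, differed between the 2 TCRgd+NK1.1- libraries. The gene 5830411N06Rik, which encodes a scavenger receptor related to Cd163l1, had 5.58 CPM in replicate 1 and 67.6 CPM in replicate 2, and 15.5 and 0.297 CPM in TCRb+CD8a+PD1-NK1.1- cells. Zbtb16, the gene of PLZF, had 9.76 and 40.0 CPM in the same order, against 3.15 and 0.938 CPM in TCRgd+ILTC1 cells. Il17re, at 75.6 and 22.1 CPM, and Tcrg-V6, at 181 and 92.6 CPM, were higher in replicate 1, as Il17a and Il23r were.

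Pdcd1, the gene of the checkpoint receptor PD1, had 457 and 498 CPM in TCRgd+NK1.1- cells against 93.1 and 93.4 CPM in TCRgd+ILTC1 cells (adjusted p = 0.0538 by edgeR, not called).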
